A study of Mus musculus with 36 samples.

Results

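The X-ray response of the wild-type mouse thymus was taken as the difference between 3 thymus libraries of X-irradiated mice and 3 thymus libraries of untreated mice, 6 of the 36 libraries in the series. The libraries were chosen by their labels, with no measured value involved. Of the 19001 genes in the deposited table that holds these paired-end libraries, 13810 reached a signal of 1 in 3 or more of the 6 libraries and were tested. The study profiled thymus, spleen and liver of mice with wild-type p53, with and without X-rays, and of X-irradiated mice lacking the C-terminus of p53, in 12 groups of 3 libraries. Both groups compared here carried wild-type p53. The X-ray group is labelled with a dose of 2 Gy and a time of 3 h, and the untreated group is labelled as control. Total RNA came from pieces of whole organ, so each value averages over every cell type in the piece, and fewer cells of a type and less RNA per cell cannot be told apart. The labels give no strain, age or sex and do not say whether the libraries of a group came from separate animals. The p-values therefore measure the spread between these libraries, part of which may be technical.

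The thymus is the organ in which T cells develop. Precursors that carry neither CD4 nor CD8 (double-negative cells) receive Notch signals, rearrange their antigen receptor genes with the RAG proteins and become the abundant CD4+CD8+ (double-positive) cells, which are then selected by epithelium of the cortex and the medulla. Thymocytes are among the cells most sensitive to ionising radiation: DNA breaks activate the kinase ATM and the transcription factor p53, p53 switches on death and arrest genes, and macrophages clear the dying cells. Cycling thymocytes also make ribosomes, nucleotides and polyamines at a high rate, in part under the transcription factor Myc.

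Values are the authors' scaled signal, a CPM-like read count corrected for library size, and are given for libraries 1, 2 and 3 of each group in that order. The signal is not divided by gene length, so levels are compared within a gene and never between genes. Differences are log2(signal + 0.5) of the X-ray group minus that of the untreated group, with the standard error (SE), and adjusted p-values come from limma with Benjamini-Hochberg adjustment over all 13810 genes. A gene is said to rise or fall where the adjusted p was under 0.05. The added 0.5 makes the difference of a gene with a low signal smaller than its fold change.

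The 6 thymus libraries held 44348579 to 60522646 reads. Log2 values of libraries of one group correlated across genes at 0.979 to 0.990, a description over genes that are not independent. T cell genes identified the tissue: Cd4, Cd8a, Cd8b1, Rag1 and Dntt each had a signal above 500 in every library. Markers of neighbouring tissue differed by library. The summed signal of 12 hepatocyte genes was 114.6 to 303.6 in the untreated group and 236.4 to 1933 in the X-ray group, with the highest value in X-ray library 3, and that of 12 fat cell genes was 70.71 to 280.2 against 108.4 to 753.8, highest in X-ray library 1. The hepatocyte sum includes Ass1, which read 34.4 to 43.1 untreated and 102 to 127 after X-rays and was called higher. Part of the shift in that sum is therefore Ass1. The muscle list, at sums of 3.726 to 10.98 over 12 genes, and the parathyroid and thyroid list, at 4.916 to 7.488 over 7 genes, stayed low in all 6 libraries. Xist, which marks female tissue, was high in untreated library 1 and X-ray libraries 1 and 2 and near 0 in the other libraries. Each group therefore mixed both kinds and did not come from a single animal.

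X-rays changed 2945 genes, 21.3% of those tested. The 1349 genes that rose made up 9.77% and the 1596 that fell 11.6%, with a median log2 difference of 0.57 among the risers and -0.41 among the fallers. Only 224 genes, 1.62%, passed the test with an absolute log2 difference of at least 1, and 201 of them rose while 23 fell. The largest fall was 1.57 on the log2 scale, for Ung, the uracil DNA glycosylase of base excision repair, against a largest rise of 4.18 for Gdf15, a secreted stress cytokine. The median difference over all 13810 genes was 0.01. The groups did not overlap, with all X-ray libraries above all untreated ones, for 18.6% of genes, and in the opposite direction for 22%. The shares over all genes, 9.77% that rose and 11.6% that fell, are the background for every list count below. The count of changed genes depended on single libraries: it was 1686 without untreated library 2, 1883 without untreated library 3 and 1576 without X-ray library 3. A single fit of the 18 wild-type libraries of 3 organs, which gives them 1 common spread, called 1840.

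**Figure D1:**
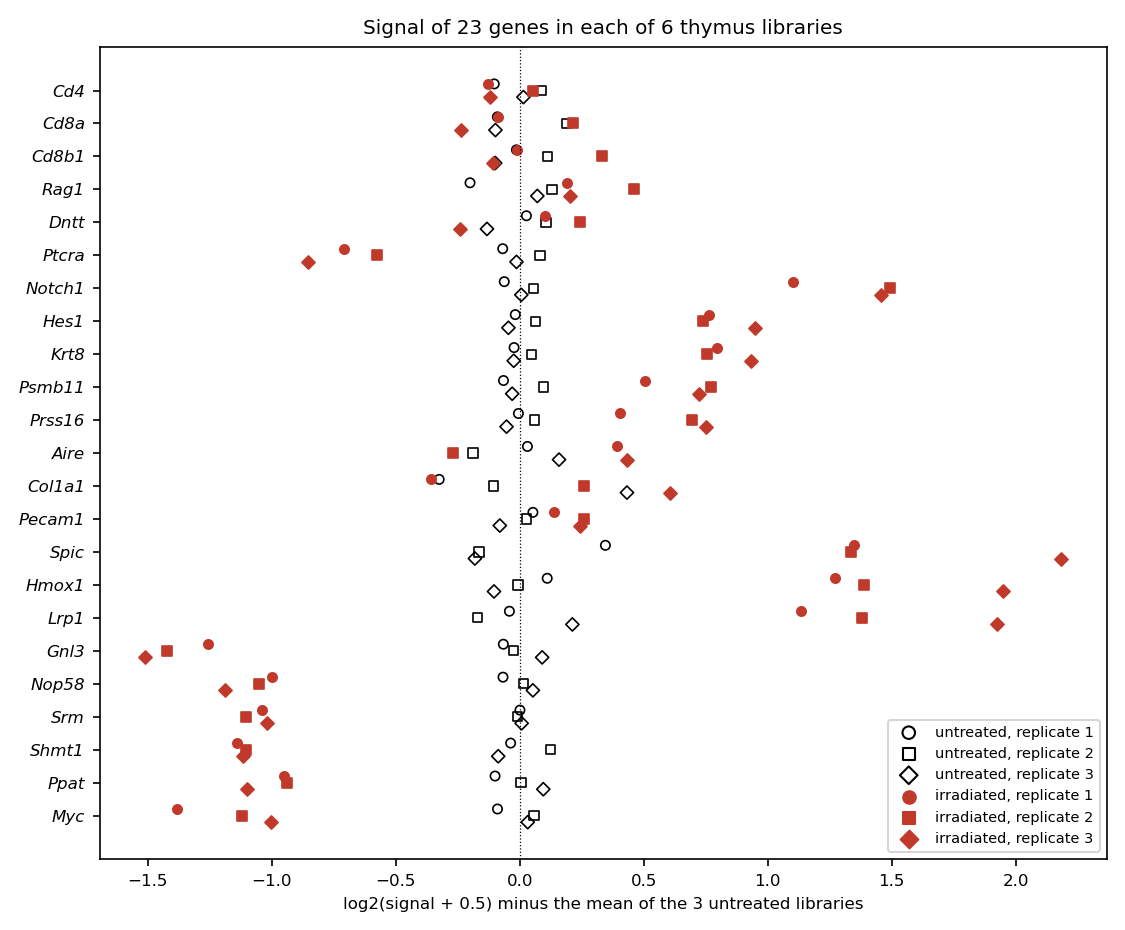
Signal of 23 genes in each of the 6 thymus libraries, shown as log2(signal + 0.5) minus the mean of the 3 untreated libraries, with 1 row per gene and 1 point per library coloured by group. Cd4, Cd8a and Cd8b1 overlap between the groups, Notch1, Krt8 and Spic lie higher in all 3 X-ray libraries, and Gnl3, Nop58, Srm, Shmt1 and Myc lie lower in all 3.

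Genes of p53 feedback and cell cycle arrest rose in 19 of 26 tested, none fell, and their median difference was 0.72. Cyclin G1 (Ccng1, NCBI gene 12450), a p53 target that recruits a phosphatase to the p53 regulator Mdm2, read 75.6, 70.8 and 78.7 untreated and 527, 526 and 452 after X-rays. The DNA repair-associated gene Zfp365 (216049) read 2.65, 3.14 and 2.68 and then 25.7, 28.3 and 23.9. Cdkn1a (12575), which encodes the cyclin-dependent kinase inhibitor p21, read 12.5, 11.1 and 15.4 and then 112, 97.7 and 113. In all 3 genes every irradiated library stood far above every untreated one. The rises were 2.73 (SE 0.09), 2.99 (SE 0.12) and 3.01 (SE 0.12), with limma adjusted p-values of 1.34e-07, 3.65e-07 and 3.65e-07. Trp53, the gene of p53 itself, had a difference of -0.23 (SE 0.07, limma adjusted p = 0.0503), below every untreated library in all 3 X-ray libraries but not past the threshold.

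The promoters of these 3 genes are shown because each holds a match to the p53 response element. The sequences are the 250 bases before the RefSeq start site on the gene's own strand in build GRCm38.p6, which carries the coordinates of mm10, and the capitals mark the match of 20 bases.
Ccng1: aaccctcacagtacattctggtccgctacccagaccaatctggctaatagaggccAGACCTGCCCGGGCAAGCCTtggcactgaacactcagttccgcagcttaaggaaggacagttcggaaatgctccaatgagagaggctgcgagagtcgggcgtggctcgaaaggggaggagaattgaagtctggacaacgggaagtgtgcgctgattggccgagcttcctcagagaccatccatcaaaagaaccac
Zfp365: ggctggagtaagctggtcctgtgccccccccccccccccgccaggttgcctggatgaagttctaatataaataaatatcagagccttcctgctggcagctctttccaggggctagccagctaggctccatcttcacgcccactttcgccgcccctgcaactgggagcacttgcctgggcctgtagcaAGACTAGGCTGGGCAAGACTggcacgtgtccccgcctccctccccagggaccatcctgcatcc
Cdkn1a: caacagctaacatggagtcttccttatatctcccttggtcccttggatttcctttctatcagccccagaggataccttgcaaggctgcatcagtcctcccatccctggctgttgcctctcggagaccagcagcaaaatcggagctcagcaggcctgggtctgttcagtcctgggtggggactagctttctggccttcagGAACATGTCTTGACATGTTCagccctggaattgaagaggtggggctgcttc
The Ccng1 window lies on the minus strand at chr11:40755287-40755536 and its match spans bases -195 to -176, with 1 mismatch, where base -1 is the last before the start site. The Zfp365 window lies on the minus strand at chr10:67912663-67912912, with its match at -63 to -44 and 2 mismatches. The Cdkn1a window lies on the plus strand at chr17:29090729-29090978, with its match at -51 to -32 and 1 mismatch, and is 1 of the 2 windows listed for that gene. The element was searched on both strands from 250 bases before to 50 after the start site. It was taken as 2 adjoining decamers RRRCWWGYYY with up to 2 mismatches, none of them at the C or G of a decamer. It was found in the windows of 4 of the 22 listed genes with a window, 18.2%, the fourth being Gtse1, named here only for its match, and in 48 of 10467 over all tested genes, 0.459%. None was found in the windows of 18 BCL2 family genes, 15 death receptor and ligand genes, 20 genes of the apoptosome, caspase and nuclease list, 26 DNA repair genes or 24 stress metabolism genes. Windows were held for 75.8% of the genes tested, so the comparison with all genes is a description and not a check. A match in the sequence does not show that a factor binds there.

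Death and repair genes included members that rose and members that fell. In the BCL2 family 5 of 19 members rose. They included Bbc3, which encodes the death activator Puma, by 3.73 (SE 0.14, limma adjusted p = 3.65e-07) and Bax, which opens the mitochondrial membrane, by 2.61 (SE 0.08, adjusted p = 1.02e-07). The 1 member that fell was Bid, a linker between death receptors and mitochondria, at 33.1, 36.7 and 32.8 untreated and 17.5, 20.8 and 17.1 after X-rays (limma difference -0.88, SE 0.10, adjusted p = 0.000524). The X-ray values of Bid were all below the untreated ones. The survival genes Mcl1 and Bcl2l1 overlapped between the groups, with differences of -0.03 and 0.24. Apaf1, the scaffold of the apoptosome, rose by 2.10 (SE 0.09, limma adjusted p = 8.70e-07), and 4 of 26 genes of the apoptosome, caspase and nuclease list rose while 2 fell. Over all genes tested 9.77% rose and 11.6% fell, so the counts of that list are not far from the background. Genes of stress metabolism, the set of sestrins, lipid and amino acid enzymes known as p53 targets, rose in 16 of 24 with none falling and a median of 1.09. Repair genes split: 5 of 35 rose, led by the translesion polymerase Polk (2.36, SE 0.08, limma adjusted p = 2.30e-07), and 8 fell, led by Ung.

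Of 22 transcripts that define double-positive thymocytes, the main stage of the organ, 4 passed the test, a share near the 21.3% of all genes tested. The coreceptor gene Cd4 read 540.0, 617 and 586 untreated and 530.1, 601 and 534 after X-rays, a difference of -0.07 (SE 0.10, limma adjusted p = 0.670). Cd8a, the other coreceptor, read 930.0, 1129 and 925 and then 932, 1149 and 840.1. The 2 groups overlapped in both genes. Of the 4 called genes 3 rose and 1 fell, and the list had a median of -0.06 and no change past the test in Satb1, the chromatin organiser of that stage (-0.05, SE 0.14). The summed signal of the list was 6536 to 7542 untreated and 6085 to 7879 after X-rays. Without untreated library 1 or without untreated library 2, the list had 1 rise.

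The pre-TCR and recombination list held 2 falls and no rise among 22 genes, with a median of -0.07. Its share of falls was near the 11.6% of all genes tested. Ptcra (NCBI gene 19208), the chain that pairs with the first rearranged receptor chain, read 21.2, 23.6 and 22.1 untreated and 13.4, 14.8 and 12.1 after X-rays. It fell by 0.71 (SE 0.10, limma adjusted p = 0.00173), and each irradiated library was below each untreated one. Rag1, the recombinase, read 1525, 1918 and 1841 and then 1998, 2411 and 2018, higher in every X-ray library but not past the test (0.28, SE 0.15, limma adjusted p = 0.197). Rag2 differed by -0.15 (SE 0.10) and Dntt, which adds bases at receptor joints, by 0.04 (SE 0.14). Gata3, the T lineage factor, was the other called fall, at -0.56, and lost its call without untreated library 2.

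Among the early-stage transcripts, the Notch pathway genes Notch1, Notch3 and Hes1 rose, while Dtx1, a Notch-induced ubiquitin ligase (-0.39, SE 0.16, limma adjusted p = 0.113), and Nrarp, a Notch feedback inhibitor (0.02, SE 0.13, limma adjusted p = 0.932), were not called. Notch1 (NCBI gene 18128), the receptor that commits precursors to the T lineage, read 78.1, 84.9 and 82.0 untreated and 176, 231 and 225 after X-rays. It rose by 1.35 (SE 0.11, limma adjusted p = 5.00e-05), with every X-ray value far above the highest untreated one. Its paralog Notch3 read 27.6, 28.2 and 25.6 and then 38.6, 45.2 and 42.6, a rise of 0.62 (SE 0.09, limma adjusted p = 0.00161). Hes1, a Notch target that represses transcription, read 3.63, 3.88 and 3.55 and then 6.60, 6.48 and 7.58, a rise of 0.82 (SE 0.12, limma adjusted p = 0.00223). Jag2, a Notch ligand, read 5.81, 6.08 and 6.30 and then 8.27, 12.3 and 13.8, a rise of 0.84 (SE 0.17, limma adjusted p = 0.00913). The groups did not overlap in Notch1, Notch3, Hes1 or Jag2. Of 16 Wnt and Notch regulators 5 rose and none fell, while the Wnt effectors Tcf7 (0.04, SE 0.14) and Lef1 (-0.05, SE 0.09) did not pass the test. The double-negative list as a whole had 5 rises among 18 genes and a median of -0.01, and Il2ra, the receptor chain of the later double-negative cells, was not called (-0.18, SE 0.08, limma adjusted p = 0.127). Notch1, Notch3 and Hes1 are on this list and on that of Wnt and Notch regulators, and enter the rises of both.

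Genes of receptor signalling and selection moved in both directions, 7 of 22 up and 4 down. Bcl2l11, which encodes the death protein Bim, rose from 32.0, 33.7 and 35.3 to 58.2, 63.8 and 63.7 (0.87, SE 0.08, limma adjusted p = 0.000115). Id2, an inhibitor of E proteins, rose from 31.7, 27.9 and 34.9 to 55.7, 57.9 and 77.3 (0.99, SE 0.13, limma adjusted p = 0.00123). Both genes were higher in every X-ray library. The activation marker Cd69 was not called (-0.19, SE 0.08), and without untreated library 2 the list had 1 fall in place of 4. Mature T cell genes rose in 4 of 24 and fell in 1. Slfn2, a quiescence factor, rose from 136, 117 and 118 to 274, 247 and 210.4 (0.97, SE 0.11, limma adjusted p = 0.000445), and Ctla4, an inhibitory receptor, from 5.16, 5.93 and 4.70 to 11.6, 10.6 and 12.4 (1.07, SE 0.12, limma adjusted p = 0.000574). The egress genes S1pr1 and Klf2 overlapped between the groups, with differences of 0.05 and 0.36. The rises in this list numbered 2 without untreated library 1, without untreated library 2 or without X-ray library 3. In the list of innate-like T and NK cells Gzma, a cytotoxic protease, fell from 70.3, 61.3 and 50.7 to 32.8, 34.4 and 22.7 (-1.02, SE 0.16, limma adjusted p = 0.00320), and 1 of 14 members rose while 3 fell. The list had 1 fall when untreated library 1 or 3, or X-ray library 2 or 3, was left out.

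**Figure D2:**
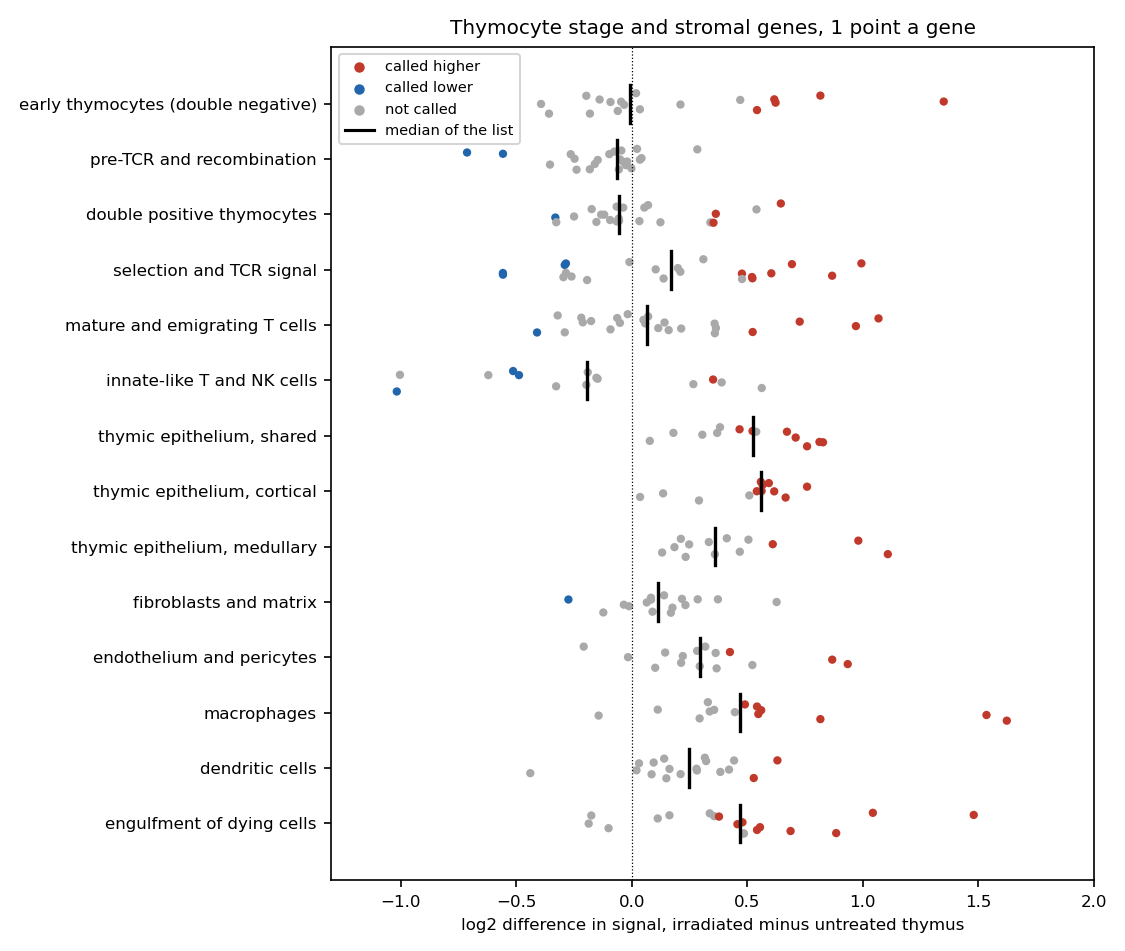
X-ray minus untreated log2 differences of the tested genes in 14 lists of thymocyte stages and stromal cells, with 1 point per gene and a bar at each list's median. The medians of the cortical and shared epithelial lists, 0.56 and 0.52, lie furthest above 0 among the epithelial and T cell lists, and that of the double-positive list, -0.06, lies near it.

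Genes of the thymic epithelium rose. Of 12 cortical genes 8 rose and none fell, with a median of 0.56. Psmb11 (NCBI gene 73902), the proteasome subunit made by cortical epithelium, read 87.0, 97.3 and 89.1 untreated and 129, 156 and 151 after X-rays. It rose by 0.67 (SE 0.09, limma adjusted p = 0.00141). Prss16, a cortical protease used in antigen presentation, read 499, 522 and 483 and then 664, 812 and 843, a rise of 0.62 (SE 0.11, limma adjusted p = 0.00546). Both genes were higher in all 3 X-ray libraries than in any untreated one, as were the cortical chemokines Ccl25 (0.54, SE 0.09, limma adjusted p = 0.00369) and Cxcl12 (0.57, SE 0.09, limma adjusted p = 0.00347). Il7 and Kitl, growth factors for precursors, did not pass the test, with differences of 0.14 (SE 0.10) and 0.29 (SE 0.12).

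Among 13 genes shared by thymic epithelial cells 7 rose, none fell, and the median was 0.52. Keratin 8 (Krt8, NCBI gene 16691) read 187, 196 and 187 untreated and 330.2, 321 and 363 after X-rays, and its partner Krt18 read 158, 175 and 173 and then 312, 266 and 313. They rose by 0.83 (SE 0.08, limma adjusted p = 0.000201) and 0.81 (SE 0.09, limma adjusted p = 0.000466), with no overlap between groups. Tbata, a regulator of epithelial proliferation, rose from 302, 314 and 307 to 499, 507 and 559 (0.76, SE 0.08, limma adjusted p = 0.000458), and Pax1, a pharyngeal pouch factor, from 49.6, 57.1 and 56.3 to 68.9, 78.2 and 88.6 (0.52, SE 0.10, limma adjusted p = 0.00762). Tbata is on both the shared and the cortical list and enters the counts and summed signals of both. Foxn1, the master regulator of thymic epithelium, read 8.70, 11.1 and 12.5 and then 10.97, 14.9 and 16.8 and was not called (0.38, SE 0.17, limma adjusted p = 0.143), and its groups overlapped. Epcam, an adhesion molecule of all epithelium, was not called either (0.31, SE 0.13).

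Medullary genes rose in 3 of 13 with a median of 0.36. Spib, a factor of medullary epithelium that dendritic and B cells also make, rose from 28.2, 18.2 and 22.9 to 41.2, 48.3 and 47.1 (0.98, SE 0.14, limma adjusted p = 0.00198), and Krt5 from 64.3, 60.4 and 73.1 to 94.9, 85.1 and 126 (0.61, SE 0.14, limma adjusted p = 0.0135). The third was the costimulatory ligand Cd80 (1.11, SE 0.14, limma adjusted p = 0.000983). Aire, which drives the display of self antigens, read 7.49, 6.36 and 8.23 and then 9.77, 5.99 and 10.1, and Ccl21a, a medullary chemokine, read 377, 169.7 and 258 and then 350.2, 297 and 374, both with overlapping groups. The summed signal was 792.3 to 837.1 untreated and 1296 to 1478 after X-rays for the shared list, 2660 to 2816 and 3915 to 4354 for the cortical list, and 387 to 687.9 and 626.6 to 795.4 for the medullary list. The whole signal is relative to the other RNA of the piece, and whether the share of epithelial RNA or its amount per cell moved was not tested.

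Of 16 fibroblast and matrix genes none rose and 1 fell. Col1a1, a collagen chain, read 9.82, 11.5 and 16.9 untreated and 9.59, 15.0 and 19.2 after X-rays. The summed signal of that list was 415.4 to 565.2 untreated and 400.7 to 573.9 after X-rays, and Col3a1 differed by -0.03 (SE 0.23). Of 15 endothelial and pericyte genes 3 rose, among them the adhesion molecule Vcam1, from 158, 152 and 137 to 211, 297 and 322 (0.87, SE 0.14, limma adjusted p = 0.00368), and Eng, a co-receptor for TGF-beta ligands, from 18.6, 12.7 and 14.0 to 27.7, 29.1 and 30.1 (0.94, SE 0.13, limma adjusted p = 0.00161). Pecam1, present in all endothelium, was not called (0.21, SE 0.08, limma adjusted p = 0.0698).

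A set of macrophage and engulfment genes rose, while the general markers Csf1r and Adgre1 did not pass the test. Spic (NCBI gene 20728), the factor of haem-recycling macrophages, read 10.03, 6.90 and 6.81 untreated and 20.6, 20.5 and 37.2 after X-rays, a rise of 1.62 (SE 0.23, limma adjusted p = 0.00167). Hmox1, the haem oxygenase of the same cells, read 16.3, 15.0 and 14.0 and then 37.1, 40.2 and 59.5, a rise of 1.54 (SE 0.16, limma adjusted p = 0.000292). Every X-ray library exceeded every untreated one, and library 3 was the highest for both genes. The receptor Csf1r (0.29, SE 0.15) and the surface marker Adgre1 (0.33, SE 0.19) overlapped between the groups. In total, 7 of 14 macrophage genes rose, a count that was 2 without untreated library 2 and 3 when a single fit of 18 wild-type libraries set the spread.

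Engulfment genes rose in 9 of 18 with none falling and a median of 0.47. Lrp1 (NCBI gene 16971), a receptor for apoptotic cells and proteases, read 10.4, 9.47 and 12.5 and then 24.2, 28.7 and 42.1, a rise of 1.48 (SE 0.19, limma adjusted p = 0.000907). Gas6, which bridges dying cells to receptor kinases, rose from 99.9, 96.0 and 93.0 to 123, 166 and 183 (0.69, SE 0.13, limma adjusted p = 0.00645), and Mfge8, another bridging protein, from 42.3, 34.9 and 37.2 to 53.7, 53.03 and 62.0 (0.56, SE 0.10, limma adjusted p = 0.00478). These 3 genes were also highest in X-ray library 3, the library with the most hepatocyte RNA, where Alb, the liver's albumin gene, read 951 against 33.5 and 63.5 in the other X-ray libraries. X-ray libraries 1 and 2 were also above all untreated libraries for Spic, Hmox1, Lrp1, Gas6 and Mfge8. Alb read 116 in untreated library 1, and the summed fat cell signal was highest in X-ray library 1, at 753.8. The part of hepatocyte or fat cell RNA in these rises was not tested. Without X-ray library 3 the engulfment list had 5 rises. Dendritic genes rose in 2 of 18, near the 9.77% of all genes tested, and Itgax, their integrin, differed by 0.10 (SE 0.14).

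The summed signals of B cell and erythroid genes overlapped between the groups. B cell genes had a median of -0.44 and 1 rise among 14, that of Spib, which is also on the medullary list. Cd79b, a signalling chain of the B cell receptor, read 33.3, 19.5 and 15.1 untreated and 17.9, 21.3 and 16.3 after X-rays. The globin genes Hba-a1, Hba-a2 and Hbb-bs differed by -0.04, -0.02 and 0.01, with untreated library 1 and X-ray library 1 highest, and reads of the near-identical Hba-a1 and Hba-a2 may be split between them. The erythroid sum was 1346 to 2668 and 1151 to 2630. Of 12 erythroid genes tested 2 fell, against 11.6% of all genes tested, and 11 had a negative difference. The falls were Tfrc (-0.92, SE 0.13, limma adjusted p = 0.00144) and Car1 (-1.10, SE 0.21, limma adjusted p = 0.00743). Granulocyte genes were called higher in 6 of 9 at sums of 36.76 to 56.64 against 57.94 to 126.1, and no member was called without untreated library 1.

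Replication genes fell in 22 of 35 and mitotic genes in 22 of 33, with medians of -0.50 and -0.41 and no rise in either list. Hells (NCBI gene 15201), a chromatin remodeller of S phase, read 44.0, 52.7 and 51.0 untreated and 21.2, 19.0 and 18.3 after X-rays, a fall of 1.31 (SE 0.10, limma adjusted p = 3.26e-05). Cyclin E2 (Ccne2), which starts replication, read 19.7, 21.952 and 19.5 and then 9.22, 11.4 and 7.37, a fall of 1.10 (SE 0.15, limma adjusted p = 0.00123). The ribonucleotide reductase genes Rrm1 (-0.30, SE 0.10, limma adjusted p = 0.0594) and Rrm2 (-0.18, SE 0.12) were not called, nor were the proliferation markers Mki67 (-0.28, SE 0.09, limma adjusted p = 0.0580) and Top2a (-0.27, SE 0.11). Hells and Ccne2 were below the untreated range in all 3 X-ray libraries. With a single fit of 18 libraries 11 replication genes and no mitotic gene were called lower, and the mitotic count was 14 without untreated library 2 and also without X-ray library 3.

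The promoter of Hells is shown as an example of the E2F-like octamers TTTCGCGC, TTTGGCGC and TTTCCCGC, which were found on either strand in the windows of 13 of 29 replication genes, 44.8%, and of 4.06% of all tested genes with a window. It was picked after these shares were seen, and the capitals mark the octamer at bases -62 to -55 of the plus-strand window at chr19:38930740-38930989 in GRCm38.p6 (RefSeq).
Hells: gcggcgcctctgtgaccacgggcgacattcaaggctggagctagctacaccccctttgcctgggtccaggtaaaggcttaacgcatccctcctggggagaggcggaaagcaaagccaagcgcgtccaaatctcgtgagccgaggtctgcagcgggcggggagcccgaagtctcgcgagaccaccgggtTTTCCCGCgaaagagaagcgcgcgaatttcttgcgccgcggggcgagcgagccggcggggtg
The pentamer CCAAT was found in the windows of 24 of 27 mitotic genes, 88.9%, against 42.8% of all tested genes with a window. These matches describe letters only.

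Ribosome biogenesis was the list with the most falls. Of 40 genes 36 fell and none rose, the median difference was -0.62, and in 38 of the 40 all X-ray libraries were below all untreated ones. Over all genes tested 11.6% fell, and 22% had all X-ray libraries below all untreated ones. Gnl3 (NCBI gene 30877), the nucleolar GTPase nucleostemin, read 46.9, 48.4 and 52.4 untreated and 20.3, 18.035 and 16.9 after X-rays. It fell by 1.40 (SE 0.09, limma adjusted p = 1.32e-05), and its untreated and irradiated values did not overlap. Nop58 (55989), a core protein of the particles that methylate ribosomal RNA, read 98.8, 105 and 107 and then 51.5, 49.6 and 45.2, a fall of 1.08 (SE 0.08, limma adjusted p = 2.85e-05). Dkc1, the enzyme that makes pseudouridine in ribosomal RNA, read 71.9, 76.4 and 79.2 and then 39.0, 40.2 and 33.8, a fall of 1.003 (SE 0.09, limma adjusted p = 9.21e-05). For each of these 3 genes all X-ray libraries were below the untreated range. The assembly factors Nolc1 and Wdr43 fell by 1.01 (SE 0.10, limma adjusted p = 0.000159) and 0.83 (SE 0.08, limma adjusted p = 0.000137). Npm1, the abundant nucleolar chaperone, read 654, 714 and 706 and then 516, 486 and 434, a smaller fall of 0.53 (SE 0.10, limma adjusted p = 0.00629). The members that did not pass included Wdr12 (0.16, SE 0.11), a large-subunit factor, Utp20 (-0.07, SE 0.11), a small-subunit factor, and the endonuclease Nob1 (-0.30, SE 0.10, limma adjusted p = 0.0572). The count stayed between 32 and 35 when any 1 library was left out and was 25 in the single fit of 18 libraries.

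Myc (NCBI gene 17869), the factor that drives many of these genes, fell from 40.8, 45.3 and 44.4 to 16.4, 19.7 and 21.4 (-1.17, SE 0.11, limma adjusted p = 0.000128). Mxd4, which competes with Myc for its partner Max, rose from 37.7, 35.0 and 32.8 to 48.4, 54.9 and 51.5 (0.55, SE 0.09, limma adjusted p = 0.00271). Neither gene's groups overlapped. Of the 21 genes of the Myc network and its classical targets 9 fell and 4 rose. Among the targets the lactate dehydrogenase gene Ldha fell by 0.45 (SE 0.09, limma adjusted p = 0.00949), but Cad, the enzyme that starts pyrimidine synthesis, read 23.3, 26.6 and 26.6 and then 41.5, 42.8 and 49.7, a rise of 0.79 (SE 0.10, limma adjusted p = 0.000758). Odc1, the ornithine decarboxylase that is a textbook Myc target, read 94.2, 103 and 91.0 and then 107, 95.1 and 91.5, with overlapping groups and a difference of 0.02 (SE 0.09). The 4 rises numbered 2 without X-ray library 3.

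Smaller shares of the transcription and translation machinery fell. Of 24 genes of RNA polymerases I and III 6 fell, with a median of -0.20. Polr1b, the second-largest subunit of polymerase I, read 14.6, 16.8 and 18.9 untreated and 8.28, 8.53 and 9.14 after X-rays, a fall of 0.91 (SE 0.12, limma adjusted p = 0.000973). Ubtf, the polymerase I activator, was not called (-0.14, SE 0.08), and the count was 2 without untreated library 2, without untreated library 3 or without X-ray library 3. Transfer RNA synthetases fell in 8 of 20, a count of 4 without untreated library 2; Dars, for aspartate, fell by 0.59 (SE 0.08, limma adjusted p = 0.00111). Translation factors fell in 11 of 23. Eif2s1, the initiation subunit that stress kinases phosphorylate, read 91.0, 93.5 and 93.5 and then 64.0, 60.3 and 52.7, a fall of 0.65 (SE 0.08, limma adjusted p = 0.00113). Eif5a, the factor modified with a polyamine, read 508, 509.7 and 482 and then 339, 344 and 301, a fall of 0.61 (SE 0.09, limma adjusted p = 0.00198). The 1 rise was Eif4ebp1, an inhibitor of cap-dependent initiation, from 5.89, 4.42 and 5.61 to 10.6, 9.07 and 10.1 (0.85, SE 0.13, limma adjusted p = 0.00290). In each of these 3 genes the groups were apart. The elongation factors Eef1a1 (-0.12, SE 0.19) and Eef2 (0.26, SE 0.12) were not called. Of 30 cytosolic ribosomal protein genes 1 rose and none fell, with a median of 0.01: Rps19 rose from 375, 342 and 358 to 547, 536 and 493 (0.55, SE 0.09, limma adjusted p = 0.00306).

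**Figure D3:**
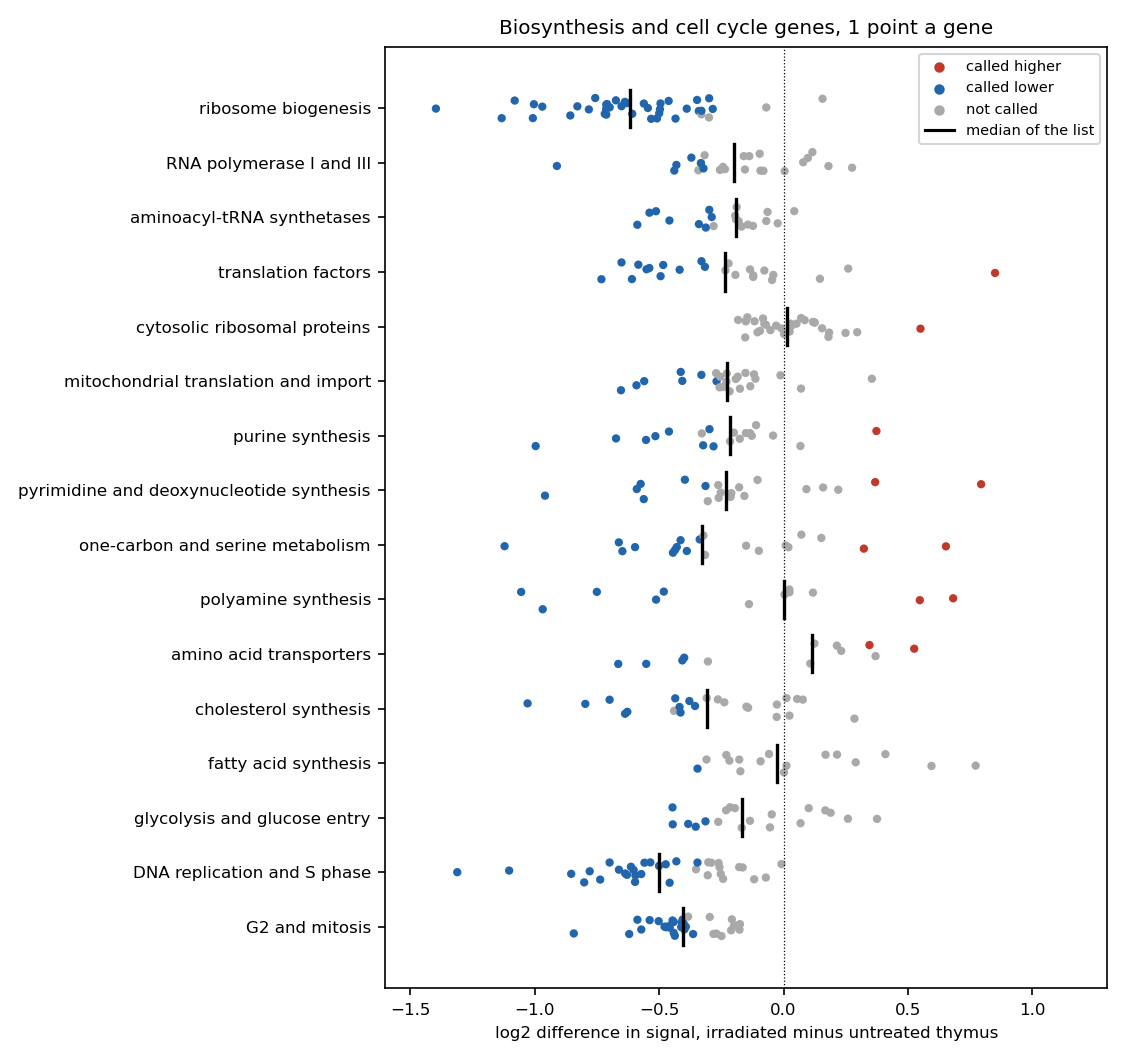
X-ray minus untreated log2 differences of the tested genes in 16 lists of biosynthetic and cell cycle genes, with 1 point per gene and a bar at each list's median. The ribosome biogenesis list has the lowest median, -0.62, while cytosolic ribosomal protein genes centre on 0.01.

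Of 19 purine synthesis genes 8 fell, 1 rose and 10 were not called. Ppat (NCBI gene 231327), the enzyme of the committed step, read 39.2, 42.2 and 44.9 untreated and 21.5, 21.7 and 19.3 after X-rays, a fall of 0.996 (SE 0.09, limma adjusted p = 0.000101). Atic (108147), which closes the purine ring, read 67.4, 72.0 and 75.8 and then 45.0, 44.7 and 44.6, a fall of 0.67 (SE 0.07, limma adjusted p = 0.000424). Both enzymes were lower in every X-ray library than in any untreated one. Gart and Paics, multifunctional enzymes of the middle steps, fell by 0.55 (SE 0.08, limma adjusted p = 0.00238) and 0.52 (SE 0.08, limma adjusted p = 0.00350). Impdh1, on the branch to guanine nucleotides, overlapped between the groups (0.07, SE 0.11). The list had 5 falls without untreated library 1, without untreated library 2 or without X-ray library 3.

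The Atic promoter is shown because it carries CACGTG, the E-box bound by Myc and other factors, close to the start site. The capitals mark it at bases -7 to -2 of the plus-strand window at chr1:71556906-71557155 in GRCm38.p6 (RefSeq).
Atic: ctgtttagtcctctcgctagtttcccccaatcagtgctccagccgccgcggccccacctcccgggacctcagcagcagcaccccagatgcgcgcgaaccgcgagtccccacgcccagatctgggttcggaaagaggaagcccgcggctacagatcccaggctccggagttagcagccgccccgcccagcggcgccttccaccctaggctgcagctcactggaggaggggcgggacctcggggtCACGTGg
CACGTG, which reads the same on both strands, was in the windows of 4 of 17 purine genes, 23.5%, of 7 of 34 ribosome biogenesis genes, 20.6%, of 7 of 17 Myc network genes, 41.2%, and of 11.5% of all tested genes with a window. It was in none of the 17 one-carbon genes with a window. Lists with many rises held it too, at 4 of 10 glucocorticoid response genes, 40%, and 5 of 17 immediate early genes, 29.4%. The share was 15% over all genes that fell and 10.8% over all that rose. None of the 18 windows of genes that fell by at least 1 held it.

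One-carbon and pyrimidine genes moved in both directions. Of 20 one-carbon and serine genes 10 fell and 2 rose, and neither rise was called when any 1 untreated library was left out. Shmt1 (NCBI gene 20425), the cytosolic enzyme that takes a carbon from serine, read 24.02, 26.9 and 23.2 untreated and 10.9, 11.2 and 11.1 after X-rays, a fall of 1.12 (SE 0.09, limma adjusted p = 6.60e-05). The mitochondrial Shmt2 read 44.2, 52.6 and 47.6 and then 28.7, 30.3 and 32.6, a fall of 0.65 (SE 0.09, limma adjusted p = 0.00159). Irradiated and untreated values did not overlap for either enzyme. Mat2a, which makes the methyl donor S-adenosylmethionine, fell by 0.66 (SE 0.09, limma adjusted p = 0.00119), whereas Mthfd1 (0.07, SE 0.08) and Ahcy (0.01, SE 0.08), which act on folate and on spent methyl donor, were not called. Among 20 pyrimidine and deoxynucleotide genes 6 fell and 2 rose. While Cad rose, later enzymes of the route fell: Umps, which makes uridine monophosphate, by 0.57 (SE 0.10, limma adjusted p = 0.00384) and Ctps, which makes CTP, by 0.59 (SE 0.08, limma adjusted p = 0.00141).

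Polyamine genes fell at the synthase steps and rose at the catabolic step, with 5 falls and 2 rises among 13. Srm (NCBI gene 20810), spermidine synthase, read 27.7, 27.5 and 27.8 untreated and 13.2, 12.6 and 13.4 after X-rays, a fall of 1.05 (SE 0.08, limma adjusted p = 4.59e-05). Mtap (66902), which recycles the by-product of both synthases, read 32.1, 32.6 and 35.0 and then 18.7, 15.965 and 15.7, a fall of 0.97 (SE 0.09, limma adjusted p = 0.000201). Sat1, the acetyltransferase that begins polyamine breakdown, read 74.4, 59.5 and 66.0 and then 116, 96.8 and 108, a rise of 0.68 (SE 0.10, limma adjusted p = 0.00220). The groups were apart in all 3 genes, and the 3 Srm values within each group lay within 1 unit of each other. Amd1, which supplies the aminopropyl group, fell by 0.75 (SE 0.08, limma adjusted p = 0.000483), spermine synthase Sms by 0.51 (SE 0.09, limma adjusted p = 0.00468) and the antizyme inhibitor Azin1 by 0.48 (SE 0.09, limma adjusted p = 0.00717). Odc1 and its antizyme Oaz1 (0.00, SE 0.10) were not called. These counts did not move when any 1 library was left out.

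**Figure D4:**
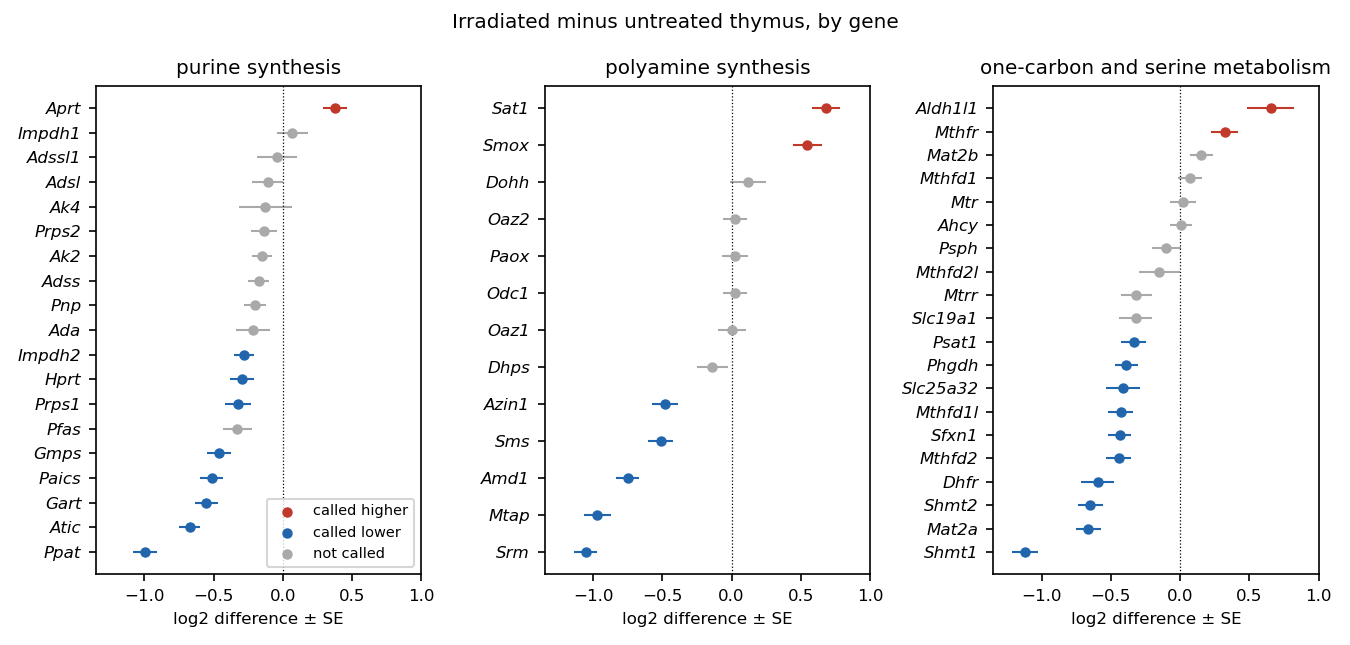
X-ray minus untreated log2 difference of each tested purine, polyamine and one-carbon gene, with bars of 1 standard error and points coloured as called higher, called lower or not called. Ppat at -0.996, Srm at -1.05 and Shmt1 at -1.12 are the lowest of their pathways, and Sat1 at 0.68 lies on the other side of 0 from Srm.

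Falls were also called among lipid, sugar and mitochondrial genes. Sterol genes fell in 10 of 23 with none rising and a median of -0.31. Sqle, the epoxidase that acts on squalene, read 18.5, 22.7 and 22.03 untreated and 12.4, 14.6 and 13.1 after X-rays, a fall of 0.64 (SE 0.11, limma adjusted p = 0.00423), and Cyp51, a later demethylase, fell by 0.63 (SE 0.11, limma adjusted p = 0.00469). Srebf2, the factor that drives the pathway, overlapped between the groups (-0.15, SE 0.12), and 6 falls were left without untreated library 2 or without untreated library 3. Of 16 fatty acid genes 1 fell, against 11.6% of all genes tested. Glycolysis had 5 falls among 19, and 2 when untreated library 2 or 3, or X-ray library 2 or 3, was left out; Gapdh (-0.17, SE 0.09) and Pkm (-0.05, SE 0.08) were not called. Of 24 genes of mitochondrial translation and import 7 fell, and 3 without untreated library 1, without untreated library 2 or without X-ray library 3. The matrix chaperone Hspd1 fell from 184, 198 and 218 to 139, 123 and 118 (-0.65, SE 0.09, limma adjusted p = 0.00179). Among 12 amino acid transporters Slc7a5, which imports large neutral amino acids, fell from 35.8, 36.04 and 35.5 to 21.3, 22.1 and 23.8 (-0.66, SE 0.08, limma adjusted p = 0.000686), with 4 falls and 2 rises in all.

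Rises were called among immediate early and chemokine genes, some of them from low levels. Immediate early genes rose in 14 of 20 with none falling and a median of 0.56. Fos, a subunit of the AP-1 factor, read 1.38, 1.78 and 1.84 untreated and 17.9, 10.8 and 25.0 after X-rays, and Atf3, a stress-induced factor, read 1.59, 1.58 and 2.12 and then 24.2, 11.97 and 30.9. Their rises were 3.01 (SE 0.25, limma adjusted p = 7.24e-05) and 3.24 (SE 0.29, limma adjusted p = 0.000104). X-ray library 2 was the lowest of its group and still above every untreated library for both. The same held for the monocyte chemokine Ccl7, at 0.361, 0.446 and 0.487 and then 13.4, 5.54 and 7.45 (3.23, SE 0.27, limma adjusted p = 6.57e-05), and for Ccl3, a macrophage chemokine (2.78, SE 0.30, limma adjusted p = 0.000424). Of 22 chemokine and receptor genes 11 rose and 2 fell, and 5 rises were left without X-ray library 3, which likewise left 9 of the immediate early genes.

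The costimulatory ligand Tnfsf4 (NCBI gene 22164), which encodes OX40 ligand, read 0.299, 0.426 and 0.716 untreated and 18.8, 15.8 and 13.2 after X-rays, a rise of 4.07 (SE 0.19, limma adjusted p = 1.16e-06). The untreated values were near 0 and the X-ray values all well above them. Of 16 costimulatory genes 5 rose, and 3 without X-ray library 1 or without X-ray library 3. Genes of the glucocorticoid response, the steroid hormone to which thymocytes are sensitive, rose in 9 of 13 with a median of 0.63. Without untreated library 1 or X-ray library 3 the count was 6. The largest rise on that list, 1.57, was that of Ddit4, which is also counted among the p53 target genes above. Fkbp5, a glucocorticoid receptor co-chaperone, read 249, 281 and 235 and then 152, 295 and 194 and was not called (-0.31, SE 0.20). NF-kB response genes rose in 5 of 17, and 3 without X-ray library 3; the inhibitor gene Nfkbia differed by 0.22 (SE 0.07, limma adjusted p = 0.0564). Interferon genes rose in 2 of 22, near the 9.77% of all genes tested. Txnip, an inhibitor of thioredoxin, rose from 282, 228 and 202 to 447, 497 and 517 (1.05, SE 0.12, limma adjusted p = 0.000675), and 5 of 17 oxidant defence genes rose.

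The same irradiation was applied to spleen and liver, and the X-ray effect in thymus was compared with that in each organ in 1 fit of 18 wild-type libraries over 15654 genes. The effects differed between thymus and spleen for 1494 genes, 9.54%, and between thymus and liver for 2428 genes, 15.5%. Of these, 844 and 1311 had the more positive effect in thymus. Both comparisons use the same 6 thymus libraries. The labels do not say whether the organs came from the same animals. The fit treats all 18 libraries as independent, and the p-values of the organ differences rest on that. The fall of ribosome biogenesis stood apart from both organs: its median effect was -0.62 in thymus, 0.24 in spleen and 0.27 in liver, and the effect was more negative in thymus than in spleen for 23 of 40 genes and than in liver for 25 of 40, with none more positive. Gnl3 had means of 49.2 and 18.4 in untreated and irradiated thymus, 71.0 and 68.2 in spleen and 34.5 and 74.4 in liver. Its thymus effect was more negative by 1.33 (SE 0.32, limma adjusted p = 0.0152) than that in spleen and by 2.41 (SE 0.32, limma adjusted p = 0.000346) than that in liver. Dkc1 differed from spleen by -0.82 (SE 0.17, limma adjusted p = 0.00575) and from liver by -1.43 (SE 0.17, limma adjusted p = 0.000110).

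For purine genes more differences were called against liver than against spleen. Ppat had effects of -0.996 in thymus, -0.93 in spleen and 0.69 in liver, so that thymus and spleen differed by -0.06 (SE 0.23) and thymus and liver by -1.69 (SE 0.23, limma adjusted p = 0.000400). Of 19 purine genes 2 were more negative in thymus than in spleen and 7 than in liver. Shmt1 went the opposite way to spleen, with an effect of -1.12 in thymus, 1.69 in spleen and -0.22 in liver. Shared epithelial genes had medians of 0.52, 0.04 and 0.00 in thymus, spleen and liver, and were more positive in thymus than in liver for 6 of 13 and than in spleen for 2. A gene could enter this fit through its thymus libraries alone. The added 0.5 keeps the effect small in an organ where the gene has little signal. These epithelial medians therefore do not show how spleen or liver responds. The widest gap from spleen between list medians was that of NF-kB response genes, with medians of 0.23 in thymus and 1.42 in spleen and a more negative thymus effect for 10 of 17. Stress metabolism genes had medians of 1.04, 0.83 and -0.08 in thymus, spleen and liver and a more positive effect in thymus than in liver for 13 of 25. Mitotic genes, at medians of -0.41, -0.26 and -0.85, had no member that differed between thymus and either organ.

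**Figure D5:**
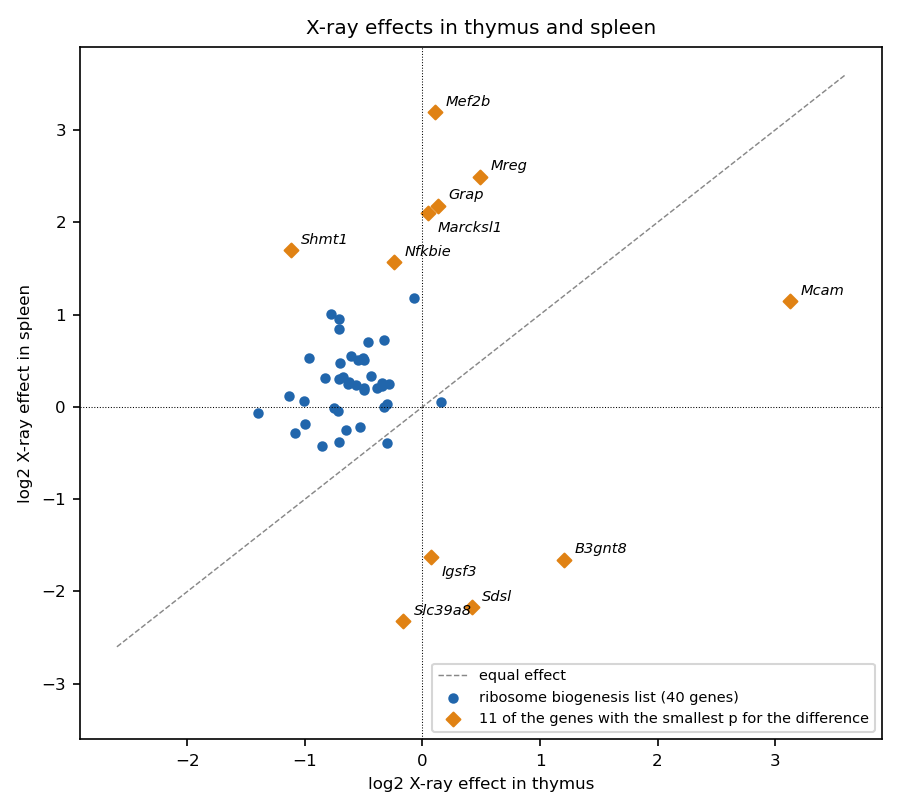
X-ray effect in spleen (vertical, log2) against that in thymus (horizontal, log2) for the 40 ribosome biogenesis genes and 11 of the genes with the smallest p for the difference between the organs, with a line of equal effect. All but 1 of the ribosome biogenesis genes lie to the left of 0 in thymus and around their spleen median of 0.24, and Shmt1 lies at -1.12 in thymus and 1.69 in spleen.

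The 1494 differences from spleen were 969 without spleen X-ray library 3 and 2343 without spleen X-ray library 1. The 2428 differences from liver ranged from 1155 without thymus X-ray library 3 to 4496 without liver X-ray library 1. The direction of the counts also depended on scaling. With plain CPM 83.8% of the differences from spleen were more positive in thymus, against 56.5% as scaled by the authors, and for liver the share was 66.3% against 54.0%, or 43.1% after quantile scaling. Plain CPM moved the median difference of all genes to 0.17 against spleen and 0.13 against liver, from 0.02 and 0.10.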

How the data were processed

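Total RNA of mouse organ pieces was sequenced after library preparation with a stranded total RNA kit, per the labels' protocols. The values are the authors' deposited signal per gene: read counts scaled per library, with column totals that differ between libraries, as CPM divided by a composition factor gives. The submitters' processing notes name mm10 and edgeR, and aligner, counter and strand setting were not given in the sources used here. Among its 36 columns, 18 match no library of the series and were not used. Every value was a whole multiple of the signal of 1 read (100.0% within 0.01 of a read), and edgeR's quasi-likelihood test on the recovered reads called 2989 genes.

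The members and the 55 gene lists (1028 genes, 957 tested) were chosen with earlier results of these data known. Some genes, such as Gata3, are on more than 1 list and enter the counts of each. Differences were tested with limma 3.58.1 (R 4.3.3, empirical Bayes with a trend) on log2(signal + 0.5) over the 6 libraries, and differences between organs in 1 fit of 18 libraries. The plan assumed CPM, and the same test was kept for the scaled signal. The script was tested on simulated data. Other settings used edgeR 4.0.16 and DESeq2 1.42.0. Named were the 10 highest and 10 lowest differences (absolute log2 of at least 1, no overlap between groups, and a group mean of 5 or more); from each list up to 6 called members of smallest p and up to 3 members not called with the highest signal; for each organ difference the 6 genes of smallest p in each direction; and a set of defining genes such as Cd4, Foxn1 and Alb. Predicted genes, pseudogenes, small RNAs and receptor segments were counted and not named, and results of a few named genes are not reported here. Symbols matched 96.7% of rows. Promoters and symbols are from RefSeq (GRCm38.p6).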

Additional observations from a re-analysis of the deposited data

Results flagged for a closer look

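The X-ray effect in thymus differed by test from that in spleen or liver for the genes below, taken from the 6 of smallest p in each direction for each organ. Values are log2 differences from the fit of 18 libraries, and the limma adjusted p-values ran from 8.21e-07 (Mef2b) to 3.70e-05 (Igsf3) for spleen and from 4.61e-08 (Ei24) to 0.000400 (Ppat) for liver.

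Against spleen the thymus effect was more positive by 1.98 for Mcam, an adhesion molecule with effects of 3.13 in thymus and 1.14 in spleen. For the zinc and manganese importer Slc39a8 the difference was 2.15, with effects of -0.17 in thymus and -2.32 in spleen. Igsf3, an immunoglobulin superfamily member, differed by 1.70 (0.08 and -1.63). The glycosyltransferase gene B3gnt8 differed by 2.86 (1.20 and -1.65), and Sdsl, a serine dehydratase-like gene with few reads in thymus, by 2.59 (0.42 and -2.17). All but Mcam had a negative effect in spleen.

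More negative in thymus than in spleen were Mef2b, a transcription factor of germinal centre B cells, by -3.08 (0.11 in thymus and 3.19 in spleen), Shmt1 by -2.82 (-1.12 and 1.69), the melanosome regulator Mreg by -2.01 (0.49 and 2.49), the signalling adaptor Grap by -2.05 (0.13 and 2.18), Marcksl1, an actin-binding protein, by -2.06 (0.04 and 2.10), and the NF-kB inhibitor Nfkbie by -1.81 (-0.24 and 1.57). All 6 had positive effects in spleen, and Shmt1 fell in thymus.

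Against liver the thymus effect was more positive by 1.93 for Ei24, a p53-induced gene of the endoplasmic reticulum (2.27 in thymus, 2.27 in spleen and 0.34 in liver), by 3.72 for Tnfsf4 (4.07, 3.81 and 0.35), by 2.76 for Hmcn2, an extracellular matrix gene (2.84, 2.43 and 0.07), by 2.05 for Bax (2.61, 2.22 and 0.56), by 2.39 for Gcdh, a lysine catabolic enzyme (2.11, 1.26 and -0.28), and by 2.98 for Dglucy, a glutamate cyclase (3.39, 2.56 and 0.40). For Ei24, Tnfsf4, Hmcn2 and Bax no difference between thymus and spleen was called. Tnfsf4 had liver means of only 0.011 untreated and 0.155 after X-rays. Its liver effect is therefore held down by the added 0.5 and does not show an absent response.

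It was more negative than in liver by -2.22 for the repressor Bcl6 (0.05, 0.77 and 2.28), by -1.43 for Dkc1 (-1.003, -0.18 and 0.43), by -0.96 for the cytoskeletal gene Septin7 (-0.54, -0.17 and 0.42), by -2.41 for Gnl3 (-1.40, -0.07 and 1.02), by -1.28 for the acetyltransferase Naa50 (-0.79, -0.58 and 0.49) and by -1.69 for Ppat (-0.996, -0.93 and 0.69). Of these 6 genes Bcl6 alone had a thymus effect above 0, and all 6 had effects above 0 in liver. The 2 organ comparisons share the thymus libraries.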

How the results depend on the processing

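The number of genes changed by X-rays in thymus was 2945, of which 45.8% rose. It was 1840 (1018 up and 822 down) in 1 fit of 18 libraries and ranged from 1576 to 2851 when single libraries were left out. With an absolute log2 difference of at least 1 the count was 224, against 145 with 2 in place of 0.5 added before the log, and 175 to 236 with 1 library left out. The organ differences numbered 1494 for spleen, 969 to 2343 with 1 library left out, and 2428 for liver, 1155 to 4496. Plain CPM gave 2029 and 1673. For thymus the other settings (other pseudocounts, filters, scalings, no trend, Xist as a covariate, edgeR and DESeq2) gave 2361 to 3677 genes; 5027 genes had an unadjusted p under 0.05.

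The labels do not say that replicate numbers mark pairs, and the main fit had no replicate block. The deviations of same-numbered libraries correlated at 0.055, 0.476 and 0.249, and those of differently numbered ones at -0.372 to 0.058. X-ray library 1 correlated with untreated library 1 at 0.055 and with untreated library 3 at 0.058. Xist read 0.149 in untreated library 2 and 515 in X-ray library 2, so number 2 does not mark a single animal or sex. Whether the numbers mark another kind of pair was not settled. With the number as a replicate block 4270 genes were called in thymus (2018 up and 2252 down), 236 with an absolute log2 of at least 1, and 1584 and 2606 for the organ differences.

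No called direction was reversed in any setting. Of 411 named genes 241 were called; 155 kept the call under every setting and 190 when any 1 library was left out. The fit of 18 libraries ended 71 calls. It left 25 of 36 ribosome biogenesis falls, 11 of 22 replication falls, 0 of 22 mitotic falls, 5 of 10 one-carbon falls, 3 of 6 pyrimidine falls and 7 of 14 immediate early rises. The cause was not tested. With 3 libraries a group, small differences of low genes cannot be resolved.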

Other observations

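Several genes with large or steady rises lie outside the groups above. The death receptor genes Fas and Tnfrsf10b, which encodes the TRAIL receptor, read 41.4, 42.5 and 39.8 and 4.45, 3.91 and 5.11 untreated, and 85.3, 83.6 and 70.0 and 15.5, 15.1 and 14.9 after X-rays. They rose by 0.94 (SE 0.09, limma adjusted p = 0.000182) and 1.66 (SE 0.12, limma adjusted p = 2.69e-05), with every X-ray library above every untreated one. Pidd1, the scaffold of the caspase-2 activating complex, rose from 11.2, 14.3 and 10.1 to 38.9, 45.0 and 41.7 (1.79, SE 0.13, limma adjusted p = 2.39e-05), while Casp2 itself was not called (-0.22, SE 0.09). Of 17 death receptor and ligand genes 5 rose and none fell.

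The genes Ass1 and Pparg, on the lists of neighbouring tissues, rose. Ass1, the argininosuccinate synthase of the urea cycle and of arginine synthesis, read 43.1, 34.4 and 41.3 untreated and 115, 102 and 127 after X-rays (1.52, SE 0.11, limma adjusted p = 2.69e-05), while Alb read 116, 14.9 and 16.1 and then 33.5, 63.5 and 951. Pparg, a fat cell and macrophage factor, read 4.14, 3.09 and 5.60 and then 11.4, 7.28 and 10.8 (1.12, SE 0.22, limma adjusted p = 0.00714), while the fat cell gene Cfd read 8.99, 1.99 and 58.9 and then 39.4, 2.87 and 31.9. Both Ass1 and Pparg were above the untreated range in every X-ray library, whereas Alb and Cfd overlapped between the groups. Within each group Pparg ranked the libraries in the same order as Cfd.

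Chaperone genes moved in both directions, 3 of 12 up and 4 down. Dnaja1, a co-chaperone of Hsp70, fell from 241, 205 and 303 to 175, 151 and 144 (-0.66, SE 0.14, limma adjusted p = 0.00966), and its X-ray values were all below the lowest untreated one. The 3 rises were not called without untreated library 2 or without X-ray library 3. Of 10 histone genes tested 3 rose and none fell, among them H2bc4, from 11.5, 12.8 and 10.2 to 16.6, 18.8 and 18.3 (0.62, SE 0.11, limma adjusted p = 0.00504).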
